A study of Mus musculus with 21 samples.

Results

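Zbtb1 and Cbfa2t3 were mapped on the genome of Ebf1-deficient lymphoid progenitors (LPs), and 1234 distal sites were shared by the 2 factors. A site was counted when a row of the Zbtb1 peak list shared at least 1 bp with a row of the Cbfa2t3 list, lay outside the class promoter-TSS of the list's own annotation, and was not annotated as a simple repeat or low-complexity sequence. The 1234 sites made up 20.9% of the 5898 Zbtb1 rows, and the same number of rows is 20.3% of the 6077 Cbfa2t3 rows. Of 1485 Zbtb1 rows that overlapped a Cbfa2t3 row, 233 were promoter rows and 18 others were left out as simple repeats. The sites were chosen by the peak calls of both factors, which rest on their Peak Scores, so scores are given below as a description without a test, while DNA letters and the mRNA of nearby genes did not enter the choice.

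The cells were a mouse (C57BL6/J) LP line that lacks Ebf1, the factor that commits lymphoid cells to the B lineage, and all samples share this deletion. They were grown on OP9 stroma with SCF, IL-7 and Flt3 ligand and without a Notch signal. ChIP-seq was done with 2 samples for each antibody and 2 inputs, and QuantSeq 3′ mRNA sequencing with 3 libraries for each of 5 sgRNA groups in Cas9-GFP cells, which makes 21 samples. Each group received a pool of 2 sgRNAs marked by hNGFR, against luciferase (sgCont), Lmo2, Zbtb1, Cbfa2t2 or Cbfa2t3, and GFP+ hNGFR+ cells were sorted, so that a pool of edited cells and not a clone was sequenced. Each factor has 1 peak list, of peaks reproducible in both ChIP samples, so a single site carries no replicate error, and the reads behind a row are not in the lists. The antibody and input samples were not compared with each other here. Peak Score is the normalised tag signal that HOMER gives a peak, and its lowest value was 15 for Zbtb1 and 20.6 for Cbfa2t3.

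Zbtb1 is a zinc finger protein with a BTB domain, the domain by which such factors pair and recruit corepressors, and it is needed for lymphocyte development. Cbfa2t3 (ETO2) is a member of the ETO family of corepressors, which do not bind DNA themselves and reach it through Lmo2 complexes with E proteins, Ldb1 and GATA or Runx factors. Sites far from promoters that carry letters for several of these factors are typical of enhancers in blood progenitors.

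The 8 sites below are shown because the results turn on them. By the worse of their ranks in the 2 lists the E2f2 and Dirc2 sites came among the first 10 outside the repeat copies described below, the Mgst2 site is the strongest of 6 near that gene, the Tcf7, Runx1, Il2rb and Cbfa2t3 sites lie by genes described below, and the Runx3 site held ETS letters and no Runx letters. Each is the 200 bp at the centre of the Zbtb1 row, on the + strand of mm10 (GRCm38). Capitals mark, read on either strand, the Runx letters TGTGGT, the ETS letters GGAAGT, the E-boxes CAGCTG and CAGGTG, the GATA letters AGATAA, and TGGTGGT with its longer form TGGTGGTGG, a short repeat of the kind that opens longer motifs assigned to ZBTB proteins.
E2f2 site, chr4:136177657-136177856: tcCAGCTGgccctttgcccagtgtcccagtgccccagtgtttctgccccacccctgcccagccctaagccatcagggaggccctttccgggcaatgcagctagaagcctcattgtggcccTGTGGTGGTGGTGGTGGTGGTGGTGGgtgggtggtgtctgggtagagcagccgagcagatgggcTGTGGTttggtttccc
Dirc2 site, chr16:35747443-35747642: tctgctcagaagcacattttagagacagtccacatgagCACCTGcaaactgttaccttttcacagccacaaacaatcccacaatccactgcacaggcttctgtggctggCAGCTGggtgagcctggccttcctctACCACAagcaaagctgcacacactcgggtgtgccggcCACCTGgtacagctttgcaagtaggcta
Mgst2 site, chr3:51782302-51782501: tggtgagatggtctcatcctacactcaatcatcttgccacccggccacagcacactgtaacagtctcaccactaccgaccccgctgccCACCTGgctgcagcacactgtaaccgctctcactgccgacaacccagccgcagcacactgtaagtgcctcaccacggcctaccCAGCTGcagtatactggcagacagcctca
Tcf7 site, chr11:52318464-52318663: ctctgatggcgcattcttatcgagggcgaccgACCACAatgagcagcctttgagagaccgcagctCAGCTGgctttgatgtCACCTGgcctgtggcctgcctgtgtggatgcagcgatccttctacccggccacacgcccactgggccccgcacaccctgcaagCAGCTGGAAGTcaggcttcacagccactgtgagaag
Runx1 site, chr16:92786853-92787052: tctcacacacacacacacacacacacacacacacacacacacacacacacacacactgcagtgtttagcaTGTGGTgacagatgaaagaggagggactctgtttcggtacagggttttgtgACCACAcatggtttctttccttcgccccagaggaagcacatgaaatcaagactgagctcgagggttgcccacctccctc
Il2rb site, chr15:78512037-78512236: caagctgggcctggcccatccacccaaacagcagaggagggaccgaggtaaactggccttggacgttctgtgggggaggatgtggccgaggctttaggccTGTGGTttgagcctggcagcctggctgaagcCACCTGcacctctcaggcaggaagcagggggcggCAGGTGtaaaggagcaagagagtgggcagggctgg
Cbfa2t3 site, chr8:122700802-122701001: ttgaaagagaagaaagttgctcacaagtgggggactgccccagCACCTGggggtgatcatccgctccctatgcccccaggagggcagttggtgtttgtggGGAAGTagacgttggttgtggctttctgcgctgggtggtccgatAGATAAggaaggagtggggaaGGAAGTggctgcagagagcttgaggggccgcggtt
Runx3 site, chr4:135069909-135070108: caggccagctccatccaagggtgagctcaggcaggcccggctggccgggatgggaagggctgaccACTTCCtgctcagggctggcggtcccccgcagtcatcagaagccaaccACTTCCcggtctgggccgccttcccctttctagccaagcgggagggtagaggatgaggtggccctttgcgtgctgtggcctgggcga

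The E2f2 window held 2 copies of TGTGGT and a run of 6 overlapping copies of TGGTGGT, the first of which began 22 bp right of the centre and shared its letters with the Runx copy beside it. In the Il2rb window TGTGGT began at the centre base itself, and 2 copies of CAGGTG followed on its right. The Runx1 window held 2 copies of TGTGGT, one on each strand and 1 on each side of the centre, next to a CA repeat. The Tcf7 window held 1 TGTGGT, 2 CAGCTG, 1 CAGGTG and 1 GGAAGT, the last sharing 1 base with a CAGCTG. The Dirc2 window held 1 TGTGGT, 1 CAGCTG and 2 CAGGTG. The Mgst2 window held E-boxes of both kinds and no TGTGGT. The windows of the Cbfa2t3 and Runx3 sites each held 2 copies of GGAAGT and no TGTGGT, and the former also held 1 AGATAA and 1 CAGGTG.

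The rows of the 2 factors were closely aligned at most sites. The centres of the 2 rows were a median of 36 bp apart, within 20 bp of each other at 393 sites (31.8%), within 50 bp at 762 (61.8%) and within 100 bp at 1037 (84.0%). Rows were mostly 370 bp wide for Zbtb1 and 378 bp for Cbfa2t3, and the median overlap was 339 bp. The narrowest overlap was 4 bp, at a site near Rnf166 with scores of 15.6 for Zbtb1 and 40.6 for Cbfa2t3. The nearest pair of rows that failed to overlap lay 4 bp apart near Ssc4d, with scores of 23.2 and 23.4.

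Of the sites, 570 (46.2%, 95% Wilson interval 43.4 to 49, counting error only, as for all intervals below) were in introns and 525 (42.5%, 39.8 to 45.3) were intergenic. A further 65 were in exons, 30 in 5′ UTRs, 20 in 3′ UTRs, 17 at gene ends and 5 in non-coding transcripts, and 2 had no class. The median distance to the nearest start site was 16164 bp, with quartiles of 5349 and 36602 bp, and 541 sites (43.8%) lay 10 to 50 kb away. Distal here means outside the promoter class, since 111 sites (9.0%) lay within 1 kb of a start, and at 29 sites the Cbfa2t3 row itself was classed as promoter-TSS. The sites had 961 different nearest genes, of which 826 had 1 site, 135 had 2 or more and 30 had 3 or more, and 88 sites had no gene name in the list.

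Zbtb1 scores had a median of 28.8 and Cbfa2t3 scores a median of 42.2. The Cbfa2t3 score was the higher of the pair at 822 sites (66.6%), although the scores come from different antibodies and are not on one calibrated scale. Over the sites the 2 scores hardly moved together: Spearman's rho was 0.078 over all 1234 and 0.052 over the 1207 left without the repeat copies described next, as a description of sites that share 2 lists. Both scores reached 30 at 439 sites (35.6%), 50 at 158 (12.8%) and 100 at 30 (2.43%). Of the sites, 343 were among the 1475 highest rows of the Zbtb1 list, 488 among the 1520 highest of the Cbfa2t3 list and 153 in both.

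**Figure D1:**
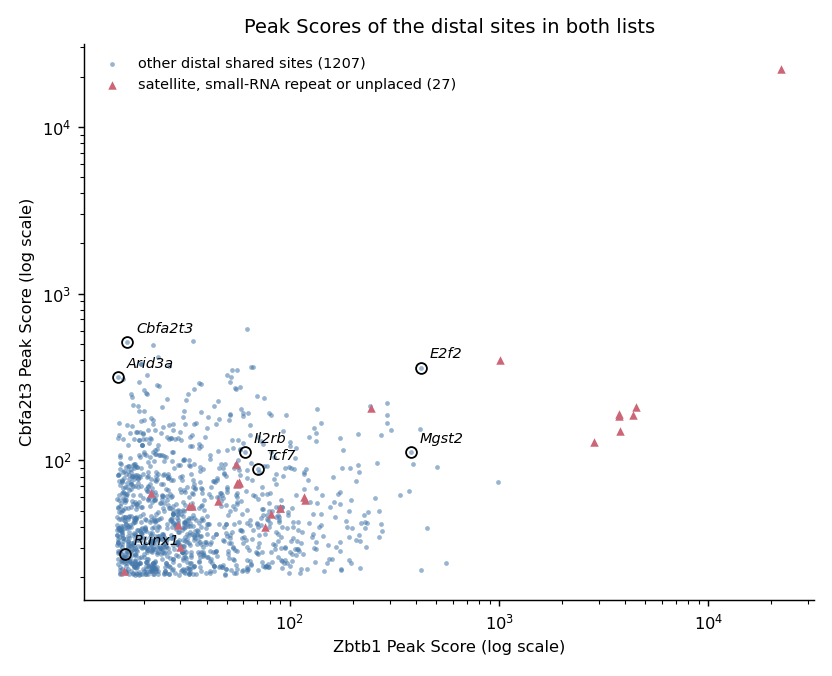
Zbtb1 Peak Score (x axis) against Cbfa2t3 Peak Score (y axis) for each shared distal site, both on log axes and without units. The cloud of 1207 sites shows no slope, the 27 sites in satellite or small-RNA repeats or off the main chromosomes include the highest Zbtb1 scores and the row with the highest score of each kind, and the circled named sites run from Cbfa2t3 (16.7 and 514.6) to E2f2 (423.2 and 360.6).

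The highest Zbtb1 scores belonged to repeated sequence, as did the highest Cbfa2t3 score. A satellite copy on an unplaced scaffold near Pisd-ps3 had scores of 22268 for Zbtb1 and 22165 for Cbfa2t3. The 6 sites near Rn4.5s, a family of copies of a small RNA, had Zbtb1 scores of 2847.8 to 4503.3 beside Cbfa2t3 scores of 129.5 to 209.9. Ribosomal RNA copies near Pex2 (1011.1 and 399.4) and Gphn (243.1 and 207.6) and U1 or U3 snRNA copies near Eapp and Tex14 (5 sites each) were of the same kind. In all 27 sites were in such repeats or off the main chromosomes, and 33 sequence windows were identical to that of another site, so that reads from such copies cannot be told apart. Their part in the scores was not tested, and with the 27 left out 66.4% of the windows held TGTGGT against 66.3% with them, and as many nearest genes were called.

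Among the 163 sites that the list placed in an annotated repeat, long terminal repeats were the largest class with 84 sites, followed by 32 in LINEs and 18 in SINEs. The long terminal repeat sites had median scores of 25.2 for Zbtb1 and 45.5 for Cbfa2t3. A set of 4 sites in copies of RLTR3_Mm stood far above these for Cbfa2t3, the pair near Coro2a at 361.3 and 362.7 and the pair near 4930559C10Rik at 347.9 and 347.7, with Zbtb1 scores between 52.7 and 66.3. The Cbfa2t3 scores within each pair were nearly equal, and whether reads from these copies can be told apart was not tested. The Dirc2 site lay in a LINE copy.

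Outside these copies, the site with the best pair of ranks was at E2f2, which encodes an E2F factor that drives genes of DNA replication. It covered chr4:136177572-136177942, in intron 1 of an E2f2 transcript and at −3025 bp from the start the list uses, and ranked 43rd of the Zbtb1 rows (score 423.2) and 27th of the Cbfa2t3 rows (360.6). The next were an intergenic site near A530013C23Rik (289.9 and 222.3), an intronic site at Dirc2 (now Slc49a4, a membrane transporter; 241.4 and 213.2) and an unnamed site on chromosome 8 (292.6 and 188.4). Tap2, a subunit of the peptide transporter for antigen presentation, followed with a site in intron 5 (290.1 and 167.4). Others of the first 10 lay near Bcas1os2 (305.4 and 151.3), Polm and Rad52, a DNA polymerase and a recombination factor of break repair (211.5 and 144.0, 273.3 and 141.7), and Cradd, a death domain adaptor (140.8 and 167.8).

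Mgst2, a microsomal glutathione transferase, had 6 sites nearest to it, the most of any named gene outside the repeat copies. All 6 lay inside intron 2 of Maml3, which encodes a coactivator of Notch signalling, with Zbtb1 scores of 22.4 to 377.2 and Cbfa2t3 scores of 41.9 to 112.1. Runx3 and Sema4d had 5 sites each. The Runx3 sites reached from −50636 to 16170 bp around its start, and the site at −40466 bp had the highest Cbfa2t3 score (151.3, beside 27.5 for Zbtb1). The Sema4d sites, all intronic, included one 860 bp from the start with scores of 179.6 and 115.3. Hvcn1, a proton channel of B cells, had 4 sites, of which 2 scored above 100 for both factors (123.5 and 138.6, 107.2 and 119.0).

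Runx letters were the most frequent of those searched. TGTGGT was found in 815 of the 1230 windows that could be read (66.3%, 63.6 to 68.8), against 15.6% (14.2 to 17.1) of 2458 windows of the same length 5 kb to each side, which is 4.25 times as often. At 332 sites (27.0%) there were 2 or more copies, against 1.51% of the side windows. Distal rows of the Zbtb1 list alone held TGTGGT in 48.8% (46.8 to 50.7), distal rows of the Cbfa2t3 list alone in 42.5% (41.0 to 44) and shared promoters in 21.9% (17.1 to 27.6), and none of these intervals reached that of the shared distal sites. Rows with Zbtb1 alone were more often in 5′ UTRs (9.99%) and exons (11.4%) than the shared distal sites (2.43% and 5.27%). The part of this in the shares was not tested. Runx1 and Runx3, the factors that read TGTGGT in lymphoid cells, were themselves among the nearest genes.

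The E-box CAGCTG followed with 32.3% (29.7 to 34.9) of the windows against 10.7% (9.58 to 12) at the sides, and the ETS letters GGAAGT with 27.2% (24.7 to 29.7) against 12%. CAGGTG was in 24.2% (21.9 to 26.7) against 16.7% (15.3 to 18.2), and GAGGAAGT, the longer form read by PU.1, in 6.75% (5.48 to 8.29) against 1.34%. Since windows can hold both, either E-box was present in 615 windows (50.0%, against 25.4% at the sides), Runx and ETS letters together in 210 (17.1% against 1.59%), and all 3 kinds in 93 (7.56% against 0.610%). Only 135 windows (11%, against 50.1%) held no Runx, ETS, E-box or GATA letters. GATA letters, AGATAA, were no more frequent than at the sides (7.97%, 6.58 to 9.61, against 9.24%).

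For the E-boxes the shared distal sites lay between the 2 lists, although the windows differed in centre. Rows with Cbfa2t3 alone were centred on the Cbfa2t3 row and the shared sites on the Zbtb1 row. The shared sites held more CAGCTG in the 50 bp bins beside the Cbfa2t3 centre (13.6 and 17.3 per 100 sites) than beside the Zbtb1 centre (12 and 10.1). The part of this in the shares was not tested. CAGCTG was in 11.8% (10.5 to 13.1) of the distal rows with Zbtb1 alone and in 51.2% (49.7 to 52.8) of those with Cbfa2t3 alone, and CAGGTG in 13.3% (12 to 14.7) and 45.4% (43.9 to 47.0). GGAAGT took the same order, with 18.3% (16.9 to 19.9) and 34.9% (33.4 to 36.3). TGGTGGT ran the other way, with 11.5% (9.80 to 13.4) of the shared distal sites, 14.8% (13.5 to 16.3) of the rows with Zbtb1 alone, 6.34% (5.63 to 7.13) of those with Cbfa2t3 alone and 4.72% (3.95 to 5.63) of the side windows. The longer TGGTGGTGG was in 2.52% of the shared distal sites and 7.31% of the rows with Zbtb1 alone. TGGTGGT and TGTGGT shared at least 1 base in 25 windows, so these shares are not independent, and 42 windows held TGGTGGT without TGTGGT.

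**Figure D2:**
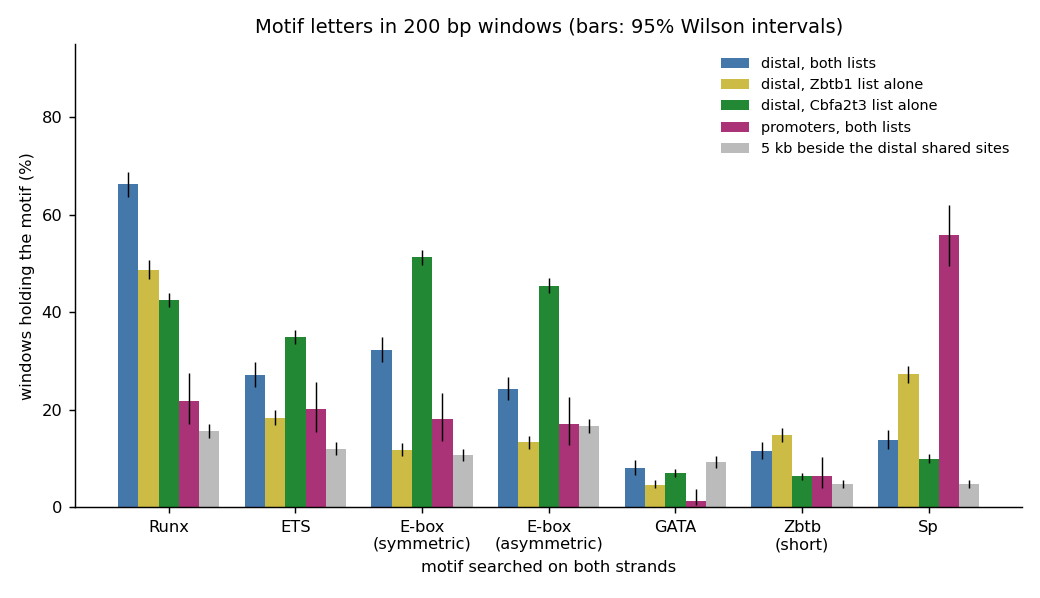
Percent of 200 bp windows (y axis, from 0) that hold each of 7 sets of letters on either strand (x axis, where the symmetric E-box is CAGCTG, the asymmetric one CAGGTG, Zbtb short TGGTGGT and Sp GGGCGG), for shared distal sites, shared promoters, distal rows of each list alone and windows 5 kb to each side of the shared distal sites, with 95% Wilson intervals. TGTGGT is highest in the shared distal sites (66.3%), the E-boxes in the rows with Cbfa2t3 alone (51.2% for CAGCTG) and GGGCGG in the shared promoters. Windows of rows with Cbfa2t3 alone are centred on the Cbfa2t3 row.

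The sites differed from promoters in base composition. The median GC content of the windows was 54.0%, against 47.5% at the sides and 67.0% in shared promoters, and 43.7% held 5 or more CG pairs against 14.9% and 91.0%. GGGCGG, read by SP and KLF factors, was in 13.7% (11.9 to 15.8) of the shared distal sites and in 55.8% (49.4 to 62.0) of the shared promoters. The same gradient ran within the distal sites: of 163 windows under 2 kb from a start, 36.2% (29.2 to 43.8) held TGTGGT and 39.3% GGGCGG, while of 1067 windows farther away 70.9% (68.1 to 73.5) held TGTGGT and 9.84% GGGCGG. By annotation TGTGGT was in 70.4% of intergenic, 68.2% of intronic, 40.6% of exonic and 20.0% of 5′ UTR windows. STAT letters TTCNNNGAA (7.80% against 6.02% at the sides) and AP-1 letters TGANTCA (6.59% against 5.49%) differed little from the sides, and TGGGAA, the core read by RBPJ, and CTTTGA, read by TCF factors, were less frequent in the sites (12.5% against 17.0%, and 11.1% against 13.5%).

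Runx letters were gathered at the centre of the sites. Per 100 sites, the middle of TGTGGT lay 35.9 times in the 50 bp left of the Zbtb1 centre and 39.1 times in the 50 bp right of it, against 3.66 to 6.02 times in each 50 bp bin more than 100 bp away. Around the centre of the Cbfa2t3 row the same 2 bins held 30.1 and 30.2. CAGCTG had the opposite preference, with 13.6 and 17.3 per 100 sites beside the Cbfa2t3 centre and 12 and 10.1 beside the Zbtb1 centre. TGGTGGT had 6.18 and 7.89 beside the Zbtb1 centre and 3.66 and 5.12 beside the Cbfa2t3 centre. AGATAA showed no such peak, with 2.20 and 1.79 beside the Zbtb1 centre and 1.54 to 3.01 in the other bins, and GGGCGG had 5.69 and 3.74 beside that centre and 6.26 and 6.50 at 100 to 150 bp from it.

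**Figure D3:**
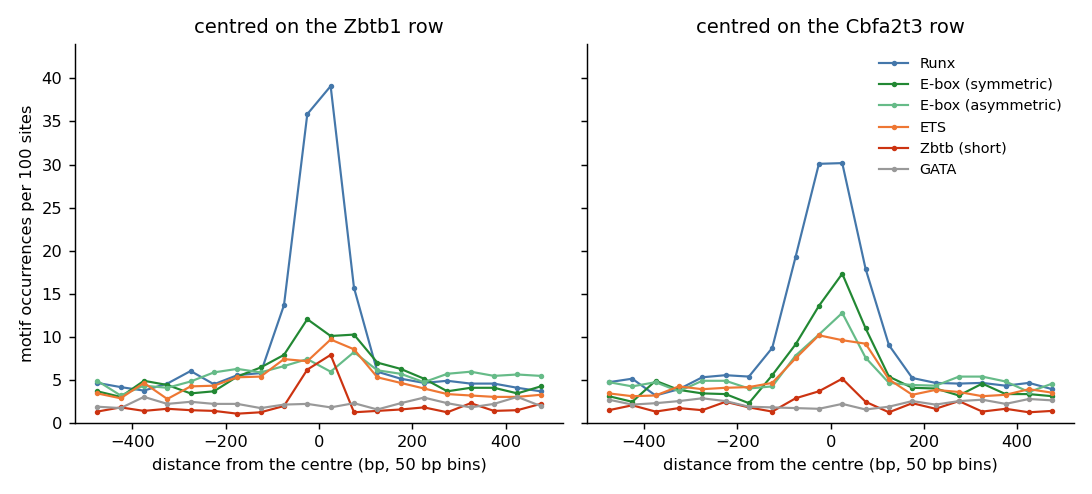
Motif occurrences per 100 sites (y axis), placed by their middle, in 50 bp bins of the distance from the row centre (x axis, −500 to 500 bp), centred on the Zbtb1 row (left) and the Cbfa2t3 row (right), with 1 line for each set of letters. TGTGGT, the Runx line, peaks within 100 bp of both centres, at 39.1 per 100 sites for the Zbtb1 centre and 30.2 for the Cbfa2t3 centre, and falls to 6.02 or fewer per bin beyond 100 bp of the Zbtb1 centre.

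Sites were then split into 3 equal classes by each score, which describes how the letters vary with the measure that chose the sites. With rising Cbfa2t3 score, CAGCTG went from 23.4% (19.6 to 27.7) over 30.7% to 42.8% (38.1 to 47.6), and CAGGTG from 16.8% (13.5 to 20.8) over 18.7% to 37.2% (32.6 to 41.9). With rising Zbtb1 score the same letters stayed near one level, CAGCTG at 34.1%, 32.2% and 30.5% and CAGGTG at 24.4%, 22.4% and 25.9%. TGTGGT was about equally frequent in all 3 classes of either score, from 63.4% to 68.7% along the Cbfa2t3 score and from 69.0% to 64.1% along the Zbtb1 score. TGGTGGTGG went from 0.732% to 3.66% of windows along the Zbtb1 score.

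**Figure D4:**
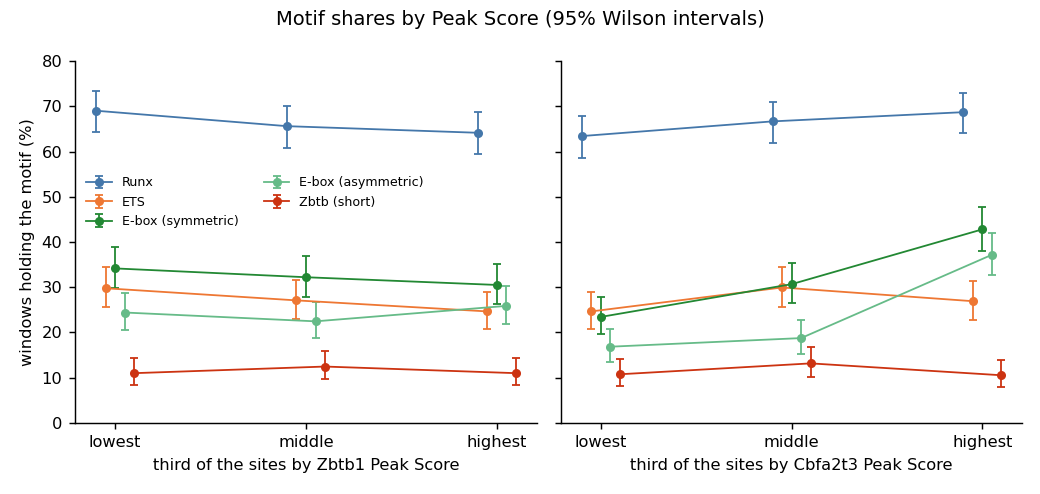
Percent of windows with each set of letters (y axis, 95% Wilson intervals) in the lowest, middle and highest of 3 equal classes of the shared distal sites by Zbtb1 score (left) and Cbfa2t3 score (right, x axes). The symmetric and asymmetric E-boxes rise with the Cbfa2t3 score (CAGCTG from 23.4% to 42.8%) and not with the Zbtb1 score, while TGTGGT stays between 63.4% and 69.0% throughout.

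The mRNA of the nearest genes was then compared between sgRNA groups. The 15 libraries held 1705416 to 2095449 reads in genes, and the values are CPM, the share of the reads in a library on one scale for all libraries, so that 3 reads, taken as the floor, were worth 1.43 to 1.76. LP markers such as Ptprc, Flt3, Cd93, Il7r and Dntt were present in all libraries, with Rag1 lowest (0.956 to 4.52). The 8 LP markers summed to between 1341 and 1392 in sgCont, 1171 and 1266 in sgZbtb1 and 1166 and 1283 in sgCbfa2t3, and in sgZbtb1 3 were called lower and 1 higher at an adjusted p under 0.05 in limma, beside 2.94% and 1.85% of all genes. Ptprc, nearest to 1 site, was lower in sgZbtb1 (log2 fold change −0.28, adjusted p = 0.0393, lost in 5 of 6 leave-outs), as was Kit (−1.14, adjusted p = 0.0205), and Cd93 was higher (0.52, adjusted p = 0.000159). Ly6d, which marks lymphoid progenitors primed for the B lineage, was 134, 155 and 186 in sgCont, 27.9, 36.8 and 23.6 in sgZbtb1 and 55.2, 67.4 and 51.0 in sgCbfa2t3. Its groups did not overlap (−2.40, adjusted p = 3.19e-20, and −1.43, adjusted p = 6.82e-10), and it was the 1 LP marker called in sgCbfa2t3. It was also lower in sgCbfa2t2 (101, 94.5 and 95.6; −0.69, adjusted p = 0.0186). The part of these markers in the results below was not tested. Among stromal markers of OP9 cells, 5 of 12 were at 0 in all libraries, and the 12 summed to between 2.95 and 13.0. By group the sums were 4.63 to 9.97 in sgCont, 2.95 to 6.15 in sgZbtb1 and 5.71 to 8.04 in sgCbfa2t3. The 1 stromal marker that was tested had a log2 fold change of −1.42 in sgZbtb1 and was not called. Zbtb1 mRNA was 62.7, 66.6 and 55.7 in sgCont and 94.4, 113 and 109 in the libraries labelled sgZbtb1, higher in every library, with an adjusted p of 0.00102. Cbfa2t3 mRNA was likewise higher in the libraries labelled sgCbfa2t3 (below), so the mRNA of the targeted genes went against a loss of transcript in both, and the labels are used as given. Cbfa2t2 was 11, 12.2 and 12.3 in sgCont and 25.5, 23.9 and 16.4 in sgCbfa2t2, above sgCont in each library without passing (0.82, adjusted p = 0.412), and Lmo2 was 23.2, 16.2 and 15.8 in sgCont and 8.48, 24.4 and 15.9 in sgLmo2, with groups that overlapped (−0.26, adjusted p = 0.956). The study examined the proteins by immunoblotting, which is not analysed here. These sgRNAs cut the gene and need not lower its mRNA, and directions below refer to the labelled libraries. Lower mRNA in a bulk library can mean fewer cells of one kind or less RNA per cell, which cannot be told apart here. The sgZbtb1 and sgCbfa2t3 comparisons share the 3 sgCont libraries and so are not independent. Values are given side by side for some genes and in 1 of these groups for others.

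The list's nearest gene was in the mRNA table for 1130 sites, as 951 genes, of which 649 (nearest to 772 sites) had a mean above 1 CPM and were tested and 170 had no read in any library. In sgZbtb1, 51 of the 649 (7.86%, 6.03 to 10.2) were called at an adjusted p under 0.05 in limma, beside 4.79% of all 11554 genes tested. Of these, 41 were lower, beside 2.94% of all genes, and 10 were higher, beside 1.85%. In sgCbfa2t3, 12 (1.85%, 1.06 to 3.20) were called, beside 0.537% of all genes. Of these, 8 were lower, beside 0.407%, and 4 higher, beside 0.13%. The share called in sgZbtb1 was as high near other peaks, at 9.34% near shared promoters, 7.94% near distal rows with Zbtb1 alone and 8.34% near those with Cbfa2t3 alone, so that it was not particular to the shared distal sites. In sgCbfa2t3 these shares were 0 of 182 (interval up to 2.07%), 1.06% and 1.24%, and all 3 intervals overlapped that of the shared distal sites. The tested nearest genes had a median level of 33.1 CPM against 25.4 for all tested genes, and the part of this difference in the counts was not tested. Genes with 2 or more sites were called in 8 of 92 cases in sgZbtb1 and 3 of 92 in sgCbfa2t3, and genes with 1 site in 43 of 557 and 9 of 557. The median log2 fold change of the nearest genes was −0.09 in sgZbtb1 and −0.06 in sgCbfa2t3, beside −0.03 and −0.01 over all genes.

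E2f2, next to the first ranked site outside the repeat copies, was lower in sgZbtb1 and higher in sgCbfa2t3. Its mRNA was 76.1, 74.1 and 83.3 CPM in sgCont, 53.6, 52.1 and 40.3 in sgZbtb1 and 153, 143 and 153 in sgCbfa2t3. All sgZbtb1 libraries were below and all sgCbfa2t3 libraries above every sgCont library. The log2 fold change was −0.68 (SE 0.15, adjusted p = 0.00209) in sgZbtb1 and 0.94 (SE 0.15, adjusted p = 6.21e-05) in sgCbfa2t3, and the direct comparison of the 2 groups gave 1.61 (SE 0.15, adjusted p = 2.09e-12). Both calls held when any single library was left out.

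Of the genes of Runx factors and the ETO family, 3 of 7 had a shared distal site, 7 sites in all. In sgZbtb1, 2 of 6 tested members were lower, beside 2.94% of all genes, and none higher (median log2 fold change −0.18, beside −0.03), and of the 3 with a site 1 was lower. In sgCbfa2t3 1 of the 6, Cbfa2t3 itself, was higher, beside 0.13% of all genes (median −0.04, beside −0.01). Runx1, a master regulator of blood stem cells and T-cell development, had 1 weak intronic site (scores 16.3 and 27.5). Its mRNA was 334, 324 and 303 in sgCont, 178, 186 and 175 in sgZbtb1 and 319, 285 and 256 in sgCbfa2t3. The sgZbtb1 libraries were all well below the others, and the log2 fold change was −0.83 (SE 0.10, adjusted p = 3.28e-09), against −0.16 (adjusted p = 0.588) in sgCbfa2t3. Runx3, with 5 sites, did not pass in either group (−0.02, adjusted p = 0.95, and −0.24, adjusted p = 0.402), with 228, 324 and 318 in sgCont and 269, 296 and 282 in sgZbtb1.

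Cbfa2t3 had a shared site beside its own gene, at −1793 bp, which was the 8th highest row of the Cbfa2t3 list (514.6) and a weak one of the Zbtb1 list (16.7). Its mRNA was 209.7, 189 and 172 in sgCont, 171, 192 and 135 in sgZbtb1 and 340.5, 344 and 364 in the libraries labelled sgCbfa2t3. The last group lay above all others, with a log2 fold change of 0.88 (SE 0.11, adjusted p = 1.67e-07). The sgCbfa2t2 libraries (232, 222 and 266) were also above every sgCont library, but the change did not pass (0.33, adjusted p = 0.265). In sgZbtb1 it was −0.21 (adjusted p = 0.326).

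Among 36 genes of the T lineage and Notch signalling, 6 had 7 shared distal sites. Tcf7, which encodes the HMG factor TCF-1 that starts the T-cell programme, had its site at −35550 bp with scores of 70.3 and 88.6, and a second Zbtb1 row at −31260 bp (28.4) without a Cbfa2t3 row. Its mRNA was at or near the floor: 0.580, 5.21 and 2.35 CPM in sgCont, 1.68, 0.478 and 0.491 in sgZbtb1 and 0.536, 0.570 and 2.21 in sgCbfa2t3. The groups overlapped, and neither log2 fold change passed (−0.83, SE 0.63, adjusted p = 0.537, and −0.69, adjusted p = 0.752), so that a change of Tcf7 was not detectable at this depth. Tox2 (57.8 and 116.8, 31.3 and 101.8), Cd3d (27.7 and 50.3), Cd2 (20.6 and 67.1), Tox (20.3 and 34.4) and Cd5 (20.3 and 20.9) had the other sites. Tox2 had no read in any library.

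In sgZbtb1, 7 of the 26 tested genes of this list were lower, beside 2.94% of all genes, and none higher (median log2 fold change −0.46, beside −0.03), and among the 4 of them with a site 1 was lower. In sgCbfa2t3, 2 of the 26 were lower, beside 0.407% of all genes (median −0.27, beside −0.01). The gene with a site that was lower in sgZbtb1 was Cd2, an adhesion receptor of T cells and their progenitors, with 8.71, 10.4 and 22.3 in sgCont and 1.68, 1.91 and 2.46 in sgZbtb1. The groups did not overlap, and the log2 fold change was −2.19 (SE 0.43, adjusted p = 0.000442). Its values in sgCbfa2t3 (3.22, 6.28 and 4.99) also lay below sgCont, but the change did not pass (−1.27, adjusted p = 0.219). Tox, an HMG factor of early T and innate lymphoid cells, was 69.7, 121 and 119 in sgCont and 67.0, 74.6 and 73.2 in sgZbtb1 (−0.48, adjusted p = 0.0654), and it passed under 5 of 16 alternatives, with adjusted p values from 0.00243 to 1.0.

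Il2rb, the beta chain of the IL-2 and IL-15 receptors, was not in a list and was named by the size of its change. It had 2 intergenic sites, at −17071 bp (60.9 and 112.2) and −15833 bp (22.4 and 40.0). Its mRNA was 61.6, 50.9 and 38.1 in sgCont, 19, 13.9 and 8.84 in sgZbtb1 and 44.5, 38.8 and 36.6 in sgCbfa2t3. It was far lower in every sgZbtb1 library, with a log2 fold change of −1.81 (SE 0.22, adjusted p = 1.16e-08), while sgCbfa2t3 overlapped sgCont (−0.30, adjusted p = 0.685).

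Of 18 genes of the Lmo2 complex and its E proteins, Id3 and Lyl1 had a site. Lyl1, a bHLH partner of E proteins and Lmo2 in blood progenitors, had a site at 36426 bp inside the body of Nfix (16.2 and 44.2). Its mRNA was 156, 167 and 155 in sgCont, 232, 239.5 and 213 in sgZbtb1 and 196, 188 and 216 in sgCbfa2t3. It was higher in every sgZbtb1 library (0.51, SE 0.11, adjusted p = 0.000943), and the change in sgCbfa2t3 did not pass (0.32, adjusted p = 0.197). In all, 2 of the 15 tested genes of this list were higher, beside 1.85% of all genes, and 2 lower, beside 2.94%, in sgZbtb1 (median log2 fold change −0.17, beside −0.03).

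Progenitor transcription factors had 10 sites at 8 of 38 genes. Of the 8, 0 were called by limma in sgZbtb1, beside 4.79% of all genes, and 0 in sgCbfa2t3, beside 0.537%. At an unadjusted p under 0.05 these counts were 2 and 0, beside 17.6% and 10.6% of all genes. edgeR called 1 and 0, beside 4.86% and 0.502%, and DESeq2 1 and 0, beside 4.78% and 1.52% of the genes to which it gave an adjusted p. Of the 35 tested genes of the list, 2 were lower in sgZbtb1, beside 2.94% of all genes (median log2 fold change 0.02, beside −0.03), and 1 in sgCbfa2t3, beside 0.407% (median −0.03, beside −0.01). The highest Zbtb1 score among them was at the gene end of Klf2 (144.4 and 35.2), a factor of lymphocyte quiescence and migration, and the highest Cbfa2t3 score at Spib (18.6 and 148.6), an ETS factor close to PU.1. Klf2 mRNA was 31.9, 38.8 and 34.0 in sgCont and 19.6, 36.8 and 18.2 in sgZbtb1, with groups that overlapped (−0.54, adjusted p = 0.219). Irf8, a factor of B, dendritic and myeloid cells, had a site at 54370 bp (25.3 and 28.3) and was the 1 nearest gene called in sgLmo2, beside 0.0173% of all genes. It was 111, 120.4 and 116 in sgCont and 50.9, 58.2 and 61.9 in sgLmo2, with every sgLmo2 library below sgCont (−1.01, SE 0.13, adjusted p = 1.2e-06), while in sgZbtb1 it was 137, 164 and 158 (0.40, adjusted p = 0.0585) and passed under 6 of 16 alternatives, with adjusted p values from 1.27e-05 to 1.0. Sox4, Foxo1, Mef2c, Foxp1 and Bach2 had the other sites.

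Cytokine receptor, JAK-STAT and survival genes had 11 sites at 9 of 39 genes. Of the 9, 0 were called by limma in sgZbtb1, beside 4.79% of all genes, and 0 in sgCbfa2t3, beside 0.537%. At an unadjusted p under 0.05 these counts were 3 and 0, beside 17.6% and 10.6% of all genes, and edgeR and DESeq2 each called 0 and 0. Of the 38 tested genes of the list, 4 were lower in sgZbtb1, beside 2.94% of all genes (median log2 fold change −0.20, beside −0.03), and 1 in sgCbfa2t3, beside 0.407% (median −0.12, beside −0.01). Flt3, the receptor for the Flt3 ligand in the medium, had a site in its 5′ UTR (141.3 and 47.7) and one in an intron 33899 bp from its start (20.0 and 175.3), the first stronger for Zbtb1 and the second for Cbfa2t3. Its mRNA was 276, 199.7 and 219 in sgCont and 241, 201 and 198 in sgZbtb1, with groups that overlapped (−0.11, adjusted p = 0.661). Jak3, the kinase of the common gamma chain receptors, had a site 232 bp from its start (84.7 and 29.5). It was 17.4, 19.1 and 21.1 in sgCont and 7.26, 11.5 and 12.8 in sgZbtb1, lower in each library but short of the threshold (−0.84, SE 0.31, adjusted p = 0.0946). Cxcr4, Bcl2l11, Pik3r1, Socs2, Cish and Pim1 also had sites.

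B-lineage genes had 2 sites at 27 genes (Foxo3, 54.8 and 29.0, and Cd72, 56.1 and 28.6) and myeloid genes 3 sites at 20 genes (Csf1r, Tyrobp and Fcer1g). Neither of the B-lineage genes with a site was called in sgZbtb1, where 4 of 16 tested genes of that list were lower, beside 2.94% of all genes (median log2 fold change −0.09, beside −0.03). Of the 9 tested myeloid genes 1 was lower in sgZbtb1, with a list median of −0.02, and this was Tyrobp. Fcer1g did not pass (−0.01, adjusted p = 0.968). Tyrobp, the signalling adaptor DAP12 of myeloid and natural killer cells, had a site at −2556 bp (27.7 and 48.4). It was 152, 197 and 194 in sgCont and 132, 104 and 116 in sgZbtb1, lower in each library (−0.61, SE 0.12, adjusted p = 0.000431), and 139, 146 and 124 in sgCbfa2t3 (−0.40, adjusted p = 0.135).

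Other nearest genes also fell. In sgZbtb1, 37 called genes were lower with a mean above 10 in either group and no overlap of libraries, beside 2.52% of all genes, and the leading ones beside Cd2 and Il2rb were Arid3b, Matk, Pdia5, Cxcr5, Ermard and Syne1. Arid3b, an AT-rich DNA-binding factor with a site at −2538 bp (24.3 and 29.4), was 23.8, 36.5 and 29.9 in sgCont and 3.91, 17.2 and 5.89 in sgZbtb1 (−1.85, SE 0.32, adjusted p = 5.19e-05). Pdia5, a disulfide isomerase with 2 sites (27.7 and 48.0, 56.2 and 56.0), was 43.0, 40.5 and 58.6 in sgCont and 19.6, 13.4 and 12.3 in sgZbtb1 (−1.60, SE 0.22, adjusted p = 3.9e-07). Syne1, which links the nucleus to the cytoskeleton, was 41.8, 37.6 and 38.1 in sgCont and 16.2, 13.4 and 12.8 in sgZbtb1 (−1.42, SE 0.25, adjusted p = 8.04e-05). In each of these the highest sgZbtb1 library was below the lowest sgCont library. Matk, a kinase that restrains Src kinases (−1.63), and Cxcr5, the chemokine receptor that leads lymphocytes into follicles (−1.48), behaved alike, with adjusted p values of 0.00171 and 0.00165, and held in each leave-out. Ermard (named 9030025P20Rik in the peak list; −1.48, adjusted p = 0.0467) was called in only 1 of 6 fits that left out a library, with adjusted p values up to 0.355.

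Mgst2, with its 6 sites, was 249, 273 and 259.8 in sgCont, 147, 146 and 137 in sgZbtb1 and 211, 234 and 192 in sgCbfa2t3. All sgZbtb1 libraries were far below sgCont (−0.85, SE 0.10, adjusted p = 3.19e-09), and sgCbfa2t3 lay between them (−0.30, adjusted p = 0.208). Hvcn1, with 4 sites, was 42.4, 46.9 and 45.1 in sgCont and 24.0, 27.7 and 29.0 in sgZbtb1 (−0.72, SE 0.19, adjusted p = 0.0129), and 50.9, 44 and 44.3 in sgCbfa2t3. Its call was lost without sgCont replicate 2 or without sgZbtb1 replicate 1, with adjusted p values up to 0.0702. Slc49a4, the gene of the Dirc2 site, was 70.8, 86.8 and 75.1 in sgCont and 44.1, 47.8 and 50.1 in sgZbtb1 (−0.70, SE 0.17, adjusted p = 0.00589, and 0.0576 without sgCont replicate 2). Sema4d, with 5 sites, did not pass (−0.49, adjusted p = 0.0534, and 0.0144 to 1.0 under 16 alternatives, of which 3 passed), nor did Coro2a with 4 (0.10, adjusted p = 0.622).

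Of the 10 nearest genes that were higher in sgZbtb1, 9 had a mean above 10 in either group and no overlap of libraries, beside 1.72% of all genes. Tmem119, a membrane protein known from microglia and bone, had 2 sites (16.3 and 43.2, 29.2 and 31.0) and was 52.3, 38.8 and 35.8 in sgCont and 75.4, 81.3 and 76.6 in sgZbtb1 (0.88, SE 0.19, adjusted p = 0.00111), above sgCont in each library. Atp2b4, a calcium pump of the plasma membrane (0.64, SE 0.15, adjusted p = 0.00505), and Idh2, the mitochondrial isocitrate dehydrogenase (0.41, SE 0.11, adjusted p = 0.016), were also higher. The Atp2b4 call was lost without sgCont replicate 2 or sgZbtb1 replicate 1, and the Idh2 call without sgCont replicate 2 or 3 or sgZbtb1 replicate 2, with adjusted p values up to 0.149 and 0.14.

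The 4 higher nearest genes in sgCbfa2t3 included E2f2, Cbfa2t3 itself and Arid3a. Arid3a, an AT-rich DNA-binding factor of B cells and blood progenitors, had an intronic site at 13609 bp with a Cbfa2t3 score of 316.2 and a Zbtb1 score of 15.1. It was 149, 135 and 137 in sgCont, 175, 228 and 171 in sgZbtb1 and 197, 210.1 and 229.9 in sgCbfa2t3, above sgCont in each library of both groups. The log2 fold change was 0.59 (SE 0.12, adjusted p = 0.00228) in sgCbfa2t3 and held in each leave-out, and 0.43 (SE 0.12, adjusted p = 0.0155) in sgZbtb1, where it was lost without sgCont replicate 2 or 3 or sgZbtb1 replicate 2 (adjusted p up to 0.209).

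Of the 8 lower nearest genes in sgCbfa2t3, Prkch, the eta form of protein kinase C, was the one that kept its call in 5 of 6 leave-outs. It had 1 site (30.8 and 25.3) and was 70.8, 79.9 and 79.2 in sgCont, 31.3, 41.1 and 46.2 in sgZbtb1 and 41.3, 45.1 and 42.7 in sgCbfa2t3. All libraries of both groups were below sgCont, with log2 fold changes of −0.95 (SE 0.17, adjusted p = 7.02e-05) and −0.82 (SE 0.17, adjusted p = 0.00447, and 0.0542 without sgCont replicate 2). Irf1, an interferon regulatory factor with a site of 23.0 and 47.9, was 70.3, 68.9 and 76.8 in sgCont, 75.4, 68.4 and 66.8 in sgZbtb1 and 39.1, 58.8 and 37.7 in sgCbfa2t3. It was lower in the last group (−0.69, SE 0.17, adjusted p = 0.0277) and not in sgZbtb1 (−0.04, adjusted p = 0.948), but its call was kept in only 1 of 6 leave-outs.

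Stk17b, a death-associated kinase of lymphocytes (−0.48, adjusted p = 0.0196), Slc30a4, a zinc transporter (−1.13, adjusted p = 0.0294), Itsn1, an endocytic scaffold (−0.63, adjusted p = 0.0162), Med13l, a Mediator subunit (−0.36, adjusted p = 0.0249), Senp6, a SUMO protease (−0.34, adjusted p = 0.034), and Pdia5 (−0.88, adjusted p = 0.0412) were the others. Pdia5 and Senp6 lost this call in all 6 leave-outs, Stk17b, Slc30a4 and Med13l in 5 and Itsn1 in 2. Stk17b and Senp6 were also called lower in sgZbtb1, as was Pdia5 above, while Slc30a4, Itsn1 and Med13l were not called there. The sgZbtb1 call was kept in all 6 leave-outs for Stk17b and in 1 for Senp6. Without sgCont replicate 2 only 3 nearest genes were called in sgCbfa2t3 in place of 12, namely E2f2, Cbfa2t3 and Arid3a. In sgCbfa2t2 the 1 nearest gene called, beside 0.147% of all genes, was Plac8, which is expressed in lymphoid and myeloid progenitors, with 1923, 1924 and 2013 in sgCont and 2280, 2614 and 2315 in sgCbfa2t2 (0.30, SE 0.07, adjusted p = 0.0447), and this was lost in 4 of 6 leave-outs.

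**Figure D5:**
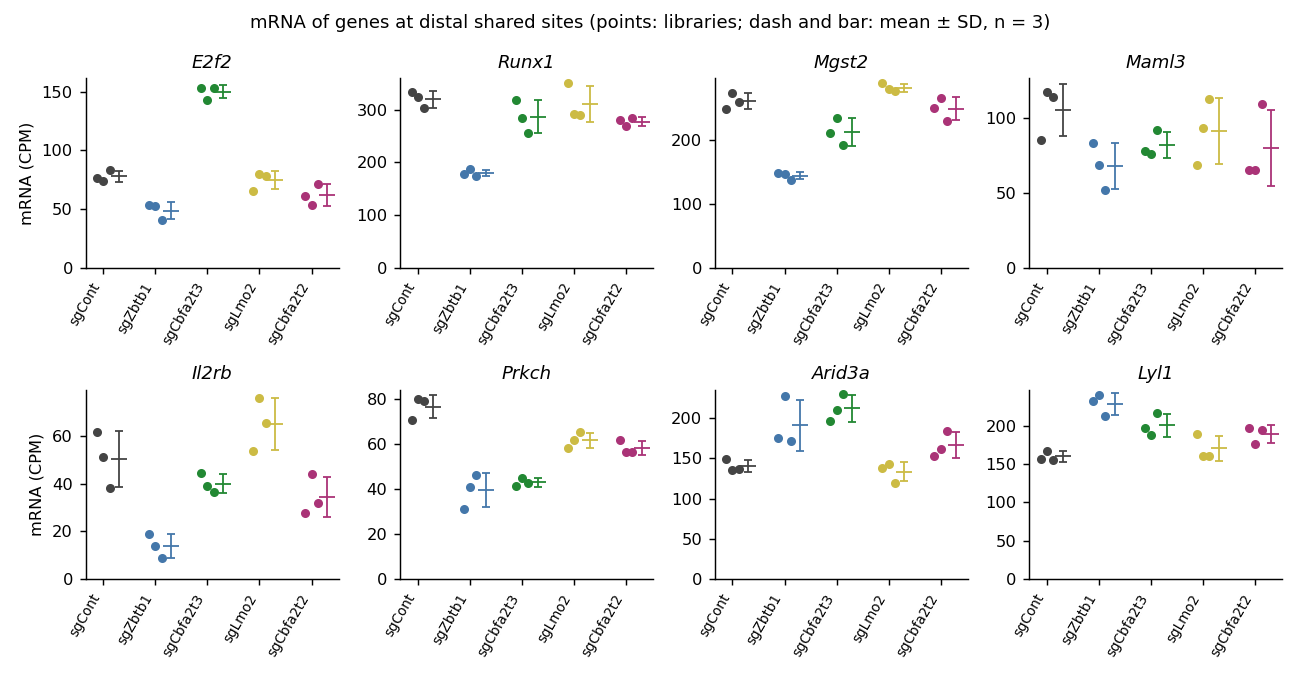
mRNA in CPM (y axis, one panel per gene) of 8 genes with shared distal sites in the 3 libraries (points) of each of 5 sgRNA groups, with the mean and SD of each group as line and bar. E2f2 is below sgCont in sgZbtb1 and above it in sgCbfa2t3, Runx1, Mgst2 and Il2rb are lower in sgZbtb1, Lyl1 is higher in sgZbtb1, Prkch is lower and Arid3a higher in both groups, and the sgZbtb1 libraries of Maml3 all lie below the 3 sgCont libraries.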

How the data were processed

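For ChIP-seq, the authors mapped reads to mm10 with Bowtie 1.1.1, called peaks with HOMER against input and deposited, for each factor, the peaks reproducible in both samples with their Peak Score, a normalised score, and their annotation. For QuantSeq, the authors trimmed reads with fastp, mapped them with STAR and deposited values per Ensembl gene that they call TPM. As deposited by the authors, the values are CPM, since they are scaled to one total per library and not divided by length: in each library 99.893% or more of them were whole multiples of 1 read, within 0.1 read. A row without a gene identifier (at most 5.86e-05% of the reads) was left out. The authors' means, SDs, test values and fold changes in the table were not used.

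limma 3.58.1 (R 4.3.3; lmFit, then eBayes with a trend) was applied to the 11554 genes with a mean above 1, on log2(value + 1), all 15 libraries in one fit, each group against sgCont, with Benjamini-Hochberg adjustment over all genes and a threshold of 0.05. Fold changes are on the log2(value + 1) scale, which understates changes of low genes. The labels name no separate cultures, while the study's methods call the 3 libraries of a group biologically independent, and p-values measure the spread between them. Alternatives were another pseudocount (0.1), all genes above 0, the study's thresholds, 6 libraries alone, a replicate block, size factors, edgeR 4.0.16 or DESeq2 1.42.0 with recovered whole reads, controls replaced by the 9 other targeted libraries, and leaving out each library. Over all genes edgeR's quasi-likelihood test called 562, 58, 2 and 17 genes and DESeq2 509, 53, 3 and 16 for sgZbtb1, sgCbfa2t3, sgLmo2 and sgCbfa2t2. The overlap of rows, the search for letters, the recovery of whole reads and the main limma fit were tested on simulated data.

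Letters were counted on both strands in 200 bp windows of GRCm38 at the centre of the Zbtb1 row. For rows of the Cbfa2t3 list alone the window lay at the centre of the Cbfa2t3 row. Of the sites, 4 had no window on the main chromosomes. Named were the 10 sites with the best worse-of-2 rank (repeat copies as a group), the 8 nearest genes with the most sites, sites near genes of 7 lists, up to 8 higher and 8 lower called nearest genes per group with a mean above 10 and no overlap, and Tcf7. Prkch, Mgst2, E2f2, Slc49a4 and Hvcn1 meet this rule by their sites or in sgCbfa2t3. Some genes that this rule chose are not reported here, and no others took their place. Sites, members and lists were chosen with earlier results of these data known. Python 3.11.15 with pandas 2.3.3, scipy 1.17.1 and pysam 0.24.0 was used.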

Additional observations from a re-analysis of the deposited data

Results flagged for a closer look

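E2f2 mRNA changed in opposite directions in 2 groups that share their controls. It was 53.6, 52.1 and 40.3 CPM in sgZbtb1 and 153, 143 and 153 in sgCbfa2t3, on either side of 76.1, 74.1 and 83.3 in sgCont. The direct comparison of the groups in the limma fit gave a log2 difference of 1.61 (sgCbfa2t3 minus sgZbtb1, SE 0.15, adjusted p = 2.09e-12), an estimate that does not use the sgCont libraries, although its SE comes from the fit of all 15. In sgLmo2 and sgCbfa2t2 its log2 fold change was −0.07 (adjusted p = 0.979) and −0.33 (adjusted p = 0.467).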

How the results depend on the processing

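The share of windows with TGTGGT (66.3%) was 53.9% in 100 bp windows, 62.9% centred on the Cbfa2t3 row and 70.6% with centres within 100 bp. With both scores at least 30, 439 sites remained, with 18, 4, 0 and 0 nearest genes called in sgZbtb1, sgCbfa2t3, sgLmo2 and sgCbfa2t2 in place of 51, 12, 1 and 1. Of the 242 genes then tested, 7.44% and 1.65% were called in sgZbtb1 and sgCbfa2t3, against 7.86% and 1.85% before. The study's thresholds gave 18, 4 and 2 in the first 3 groups, of which 11, 1 and 1 were among the main calls. The 9 other targeted libraries as controls gave 7, 32 and 2 in the last 3, of which 4, 1 and 0 were among the main calls. Host genes in place of nearest genes gave 7, 0 and 0 in the last 3. Genes within 50 kb gave 0 in sgLmo2. With all genes above 0, sgCbfa2t3 had 7 and sgCbfa2t2 0. For sgCbfa2t2 a pseudocount of 0.1, the 6 libraries alone and size factors gave 0 and DESeq2 2. Leaving out 1 library gave 34 to 47 (34 without sgCont replicate 2), 3 to 9, 1 and 0 to 2. For sgCbfa2t3 it was 3 without sgCont replicate 2, 6 without sgCont replicate 3 or sgCbfa2t3 replicate 1 and 7 without sgCbfa2t3 replicate 2.

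Over all genes the counts of 554, 62, 2 and 17 became 171, 48, 23 and 44 with the study's thresholds, and 330, 24 and 0 (sgZbtb1, sgCbfa2t3, sgCbfa2t2) with all genes above 0. With the 9 other libraries as controls they were 31, 201 and 9 in sgCbfa2t3, sgLmo2 and sgCbfa2t2, and leaving out 1 library gave 306 to 459 in sgZbtb1, 26 to 59 in sgCbfa2t3, 1 to 4 in sgLmo2 and 2 to 26 in sgCbfa2t2. The lowest were 306 without sgZbtb1 replicate 3, 26 without sgCont replicate 2, 1 without sgCont replicate 2 or sgLmo2 replicate 2 or 3, and 2 without sgCont replicate 3 or sgCbfa2t2 replicate 2.

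Replicate numbers were not used to pair the samples, since no correlation of same-numbered libraries passed 0.1. Any effect of the number, however weak, was left in the main fit. With the replicate block 72, 15, 2 and 1 nearest genes were called in sgZbtb1, sgCbfa2t3, sgLmo2 and sgCbfa2t2. Over all genes these counts were 709, 93, 14 and 36, against 554, 62, 2 and 17 without the block. Every targeted library correlated best with the sgCont library of its own number, except sgCbfa2t2 replicates 2 and 3. Of 1846 log2 fold changes of followed genes under alternatives, 164 lost and 20 gained a call and 0 reversed a called direction. The cause of these changes was not tested, except that the score limit keeps fewer sites by construction. At this depth genes under about 10 CPM, Tcf7 among them, carry little precision, and the peak lists give no depth.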

Other observations

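The genes in whose body a site lay were often not the nearest genes. Of the sites, 736 had their centre inside a protein-coding gene, and at 232 of these the nearest start belonged to another gene or was not paired with one. Of 511 such host genes tested, 50 (9.78%) were called in sgZbtb1, 43 lower and 7 higher, beside 4.79% of all genes, and 18 of the 50 were not the nearest gene of a site. In sgCbfa2t3, 7 (1.37%) were called, beside 0.537% of all genes.

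The host genes named here were chosen after their values were seen. Maml3, the Notch coactivator that holds the 6 Mgst2 sites, was 85.4, 117 and 114 in sgCont and 83.2, 68.4 and 52.0 in sgZbtb1 (log2 fold change −0.64, SE 0.17, adjusted p = 0.0145 in limma), and its call was lost without sgCont replicate 2 or 3 or sgZbtb1 replicate 3 (adjusted p up to 0.185). Itpr2, a calcium channel of the endoplasmic reticulum, was 19.7, 40.5 and 41.0 in sgCont and 4.47, 5.26 and 4.91 in sgZbtb1 (−2.49, SE 0.28, adjusted p = 1.12e-09). Nav1, a neuron navigator protein, was 89.4, 142 and 122 in sgCont and 53.1, 56.4 and 62.9 in sgZbtb1 (−1.0, SE 0.14, adjusted p = 4.06e-07). In both genes every sgZbtb1 library lay below every sgCont library. Pax5, the factor that keeps B cells committed, was low in all libraries, at 6.97, 5.21 and 8.21 in sgCont and 0, 0.956 and 1.47 in sgZbtb1 (−2.19, SE 0.51, adjusted p = 0.0042), with the latter values at or under the floor of 3 reads. In sgCbfa2t3 the host gene that was not a nearest gene was Snap47, with 19.7, 21.4 and 10.6 in sgCont and 37.5, 34.8 and 38.8 in sgCbfa2t3 (1.12, SE 0.25, adjusted p = 0.014).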
